A study of Saccharomyces cerevisiae with 20 samples.

Results

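The tip of the histone H3 tail, residues 1 to 8, was represented by 15 strains of a yeast histone mutant library, each with 1 amino acid of H3 replaced by another. The strains were chosen from the deposited barcode table as all H3 substitutions whose residue number lay between 1 and 8, counted without the initiator methionine. All 15 averaged 10 counts or more over the libraries and were kept, out of 347 kept strains and 422 named strains in the pool. They were A1S, R2A, R2K, T3A, T3D, K4A, K4Q, K4R, Q5A, Q5E, T6A, T6D, A7S, R8A and R8K, where the first letter is the wild-type residue and the last its replacement. Every strain of the pool derived from Saccharomyces cerevisiae JDY86, in which the hht1-hhf1 copy of the H3 and H4 genes was deleted, so that the mutated HHT2-HHF2 copy was its only source of H3 and H4. The pool, which also held a barcoded wild type, was grown in rich glucose medium (YPD) as 1 culture and aged in it. Cells sampled at days 0, 1, 2, 3, 5, 7, 14, 24, 34 and 44 were parted on a Percoll density gradient into a dense quiescent and a light non-quiescent fraction. Amplified barcodes of every fraction were sequenced, in 20 libraries, so that a fraction at a given day stands on 1 library. There was no second culture, and each substitution was 1 barcoded entry of the pool. The p-values below measure the scatter of libraries around a trend or a mean within 1 culture, with serial samples taken as independent.

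In the nucleosome the H3 tail leaves the particle between the gyres of DNA, and its first residues are the part that reader proteins bind. Lysine 4 is methylated by Set1, the enzyme of the COMPASS complex, mainly at the start of transcribed genes, and it is also acetylated. Arginine 2 is methylated in yeast, and asymmetric methylation there prevents trimethylation of lysine 4. Threonine 3 is phosphorylated by haspin in mitosis in many eukaryotes, glutamine 5 can carry serotonin in mammals, and threonine 6 is phosphorylated in mammalian cells. The first 4 residues together form the surface held by PHD fingers, small domains that read the methylation state of lysine 4. When a yeast culture runs out of glucose, part of the cells enter quiescence, becoming dense, unbudded and rich in storage carbohydrate, and these live longer than the non-quiescent cells left in the culture.

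A strain was recognised in the libraries by a pair of 20-base barcodes, the up and the down barcode, which stand beside its mutated gene and carry no part of histone H3. The up barcodes of the strain with the lowest day 44 ratio (defined below) at each of residues 2 to 5, and of the T6D strain for contrast, are given here because the values below are counts of these sequences.
H3R2A up barcode: aggcatactacacagattcc
H3T3A up barcode: gccagatcatcaataggcac
H3K4A up barcode: cgcctaagaccggataaagc
H3Q5E up barcode: acagtaactccaggtattcg
H3T6D up barcode: aggtgactccttccatcggt
H3K4Q up barcode: gctctccgtaaacgcaaaga
H3K4Q down barcode: gaagtacgctcaagaccgac
The K4Q pair is shown whole because its down barcode was poorly counted: it gave 10.3% of the strain's counts, 98 against 852 for the up barcode over the 20 libraries. In the other 14 strains the down barcode gave between 26.5% (R8A) and 75.4% (R8K) of the counts.

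The libraries held 126647 to 337544 counts, and the median kept strain had between 206 (quiescent, day 24) and 486 counts (quiescent, day 34). Among the tip strains the mean count ranged from 47.5 (K4Q) to 1382 (T6D), so K4Q and R2A (50.4) carried the widest counting error. The quiescent day 24 library had only 12.4% of its counts from down barcodes, against 32.1% to 49.4% in the other 19. The day 5 libraries stood apart in another way. Over the 347 kept strains the quiescent day 5 library correlated with the non-quiescent day 3 library at r = 0.97 and with the quiescent day 3 library at 0.91, and the non-quiescent day 5 library with the quiescent day 3 library at 0.98 and with the non-quiescent day 3 library at 0.89. Each day 5 library thus resembled the opposite fraction of day 3 more than its own, so that the fraction labels of this day may be exchanged. The labels were kept as given, day 5 values are printed under their labels, and the trends below start at day 7. The wild type had 1012, 1251, 1067, 1183, 1086, 1071, 1258, 893, 2223 and 1123 counts in the quiescent libraries in order of day. Its lowest and highest counts came from the libraries with the fewest and the most counts.

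At the last day the quiescent fraction separated the tip strains by residue. Each strain's day 44 ratio compares its quiescent count at day 44 with that at day 0 on the log2 scale, after the median of that log2 value over all kept strains was subtracted, so that 0 is the median strain. All 9 substitutions at residues 2, 3, 4 and 5 lay more than 4-fold below the median strain, with ratios of -5.05 to -2.56 and a median of -3.81. The 6 substitutions at residues 1, 6, 7 and 8 lay between -0.90 and 0.86, and none was past that fold. Of all 347 kept strains 18.7% were more than 4-fold below the median. These residue groups were formed after the values were seen, and their difference was not tested. The wild type had a ratio of 0.41. Across the tip, 12 of the 15 strains were below the median strain. In the non-quiescent fraction the same 9 strains had a median ratio of -1.17, from -2.46 (K4Q) to 0.74 (R2K), and 1 was more than 4-fold below the median, against 11.8% of all strains. A barcode share cannot tell cells that died within a fraction from cells that moved to the other one.

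Lysine 4 was replaced by alanine, by glutamine, which is uncharged like acetyl-lysine, and by arginine, which keeps the positive charge but is not a substrate of Set1. K4A had 244, 170, 191, 195, 82, 211, 101, 20, 44 and 9 counts in the quiescent libraries in order of day, and 171, 108, 44, 47, 141, 110, 160, 104, 134 and 107 in the non-quiescent ones. Its quiescent counts were 170 or more at every day up to day 7 except day 5 and below 50 from day 24, while the non-quiescent counts ended close to their level at day 7. The day 44 ratio of K4A was -4.50 (95% counting interval -5.64 to -3.55), which is 22.6-fold below the median strain. K4R had 424, 208, 236, 298, 167, 366, 151, 68, 104 and 37 quiescent counts in order of day and a day 44 ratio of -3.26 (-3.78 to -2.77). K4Q had 105, 55, 72, 85, 19, 82, 37, 16, 14 and 6 quiescent counts and a ratio of -3.87 (-5.35 to -2.70). The K4Q ratio rests on the up barcode, since the down barcode gave 1 quiescent count at day 0 and 1 at day 44. All 3 replacements of this residue thus ended far below the median, the charge-keeping arginine included, and the intervals of K4A and K4R overlapped.

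Arginine 2 and threonine 3, which flank lysine 4 on its N-terminal side, gave low ratios as well. R2K, where the positive charge is kept, was the most abundant of the 9 strains, with 666, 1218, 1453, 1773, 793, 769, 391, 108, 213 and 94 quiescent counts in order of day. Its non-quiescent counts were 427, 1273, 928, 653, 1432, 1207, 1120, 799, 1046 and 1047. R2K thus exceeded its starting counts in both fractions in the first days, and only the quiescent counts then dropped below the start. Its day 44 ratio was -2.56 (-2.89 to -2.25). R2A had 105, 86, 83, 88, 32, 89, 36, 10, 13 and 6 quiescent counts and a ratio of -3.87 (-5.35 to -2.70), on few counts. T3A and T3D, the second of which places a negative charge where a phosphate can stand, had ratios of -3.30 (-3.83 to -2.80) and -2.95 (-3.49 to -2.45). T3A had 436, 170, 58, 100 and 36 quiescent counts at days 7, 14, 24, 34 and 44. T3D had 307, 141, 29, 70 and 36 at the same days. Both lost most of their quiescent counts between day 7 and day 24.

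Glutamine 5 lies outside the stretch of residues held by PHD fingers but gave the lowest ratio of the tip. Q5E had 437, 257, 263, 257, 233, 100, 35, 12, 34 and 11 quiescent counts in order of day, and 305, 229, 215, 170, 169, 163, 149, 107, 136 and 141 non-quiescent counts. Its day 44 ratio of -5.05 (-6.06 to -4.20) was the 16th lowest of 347 strains. Q5A had 489, 504, 426, 510, 420, 234, 98, 30, 73 and 29 quiescent counts and a ratio of -3.81 (-4.41 to -3.27). At day 7, the start of the trend tested below, the quiescent ratio to day 0 was -0.96 for Q5A and -2.02 for Q5E, against -0.25 to 0.32 for the other 7 strains at residues 2 to 4.

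The remaining 4 positions showed no such loss. Threonine 6 and alanine 7 stayed near or above the median strain. T6D, again a negative charge in place of threonine, had 809, 1081, 1112, 1512, 1543, 1620, 1303, 1026, 2515 and 1226 quiescent counts in order of day and a day 44 ratio of 0.86 (0.73 to 0.99). T6A had a ratio of 0.33 (0.11 to 0.55) and A7S one of 0.54 (0.28 to 0.80). Both lay close to the wild type, whose interval ran from 0.29 to 0.54. A1S had 348, 494, 549, 513, 187, 425, 350, 181, 435 and 197 quiescent counts and a ratio of -0.56 (-0.82 to -0.30). R8A had 326, 462, 398, 383, 269, 255, 266, 116, 268 and 146 quiescent counts and a ratio of -0.90 (-1.19 to -0.61). R8K, with the charge kept, had a ratio of -0.30 (-0.80 to 0.20). A1S and R8A therefore lay below the median strain with counting intervals that excluded it, though by less than 2-fold. Relative to the wild type, itself above the median strain, A1S was 1.96-fold, R8A 2.48-fold and R8K 1.64-fold lower. The interval of R8K included the median strain.

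The trend within stationary phase was tested with edgeR as the slope of the count on day over days 7, 14, 24, 34 and 44. In the quiescent fraction 10 of the 15 strains fell and none rose at an adjusted p under 0.05, against 22.8% of the 347 strains that fell and 17.9% that rose. The 10 were the 9 substitutions at residues 2 to 5, and A1S. K4A fell by 1.11 ± 0.14 log2 per 10 days (SE, edgeR adjusted p = 0.0025), the steepest slope of the tip. R2A fell by 1.09 ± 0.18 (adjusted p = 0.0036), K4Q by 1.01 ± 0.16 (0.0036) and T3A by 0.88 ± 0.13 (0.0028) on the same scale. T3D, K4R, R2K, Q5E and Q5A had slopes of -0.80 to -0.72 with adjusted p of 0.0028 to 0.016. A1S fell by 0.20 ± 0.06 (adjusted p = 0.033), a far smaller slope than at residues 2 to 5. Among the others R8A had a slope of -0.17 ± 0.07 (adjusted p = 0.091), which passed at -0.28 with library totals (0.026), at -0.27 relative to the wild type (0.042), at -0.25 with the up barcode alone (0.046) and on log2 of day plus 1 (0.024). R8K, T6A, T6D and A7S had slopes of -0.08 to 0.07 (adjusted p of 0.36 to 0.91), beside 0.10 ± 0.07 (0.25) for the wild type. The calls of T3D, Q5A and Q5E were lost when day 7 was left out (slopes of -0.53, -0.42 and -0.35; adjusted p = 0.087, 0.11 and 0.25), and that of A1S when day 7, 34 or 44 was.

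In the non-quiescent fraction no such trend was found. The slopes of the 15 strains lay between -0.13 (T3D) and 0.03 log2 per 10 days (R2A), and edgeR called 0.0% of the 347 strains in either direction, as did DESeq2. At an unadjusted p under 0.05 there was 1 tip strain, T3D, among 37 strains by edgeR, and 1 among 22 by DESeq2. Between days 7 and 44 the 9 strains at residues 2 to 5 changed by a median of -3.08 on the log2 scale in the quiescent fraction, against -0.28 in the non-quiescent fraction, both relative to the median strain. This group was formed after the quiescent day 44 values were seen, which favours a larger quiescent change.

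The slopes of the fractions were then compared in 1 model with an interaction of fraction and day, without pairing the fractions of a day, although these came from the same sample of the culture. For the 9 strains at residues 2 to 5 the quiescent slope was lower than the non-quiescent slope, by 0.67 to 1.16 log2 per 10 days, and each passed the test (edgeR adjusted p of 0.0017 to 0.023). With day as a block, a fit added after the data were seen, the same 9 passed (0.62 to 1.16 lower, adjusted p of 0.0093 to 0.049). Over all strains 19.6% were lower in this comparison and 14.1% higher. The difference was -0.17 ± 0.06 for A1S (adjusted p = 0.063), which passed under 7 alternatives, among them DESeq2 (0.037), no filter (0.040) and library totals (0.0081), and not with day as a block (0.091). It was between -0.12 and 0.11 for R8A, R8K, T6A, T6D and A7S (adjusted p of 0.20 to 0.83), of which R8A passed with library totals (-0.24, adjusted p = 0.049). R2A had the largest difference, with a quiescent slope of -1.09 and a non-quiescent slope of 0.03. Without day 7 the calls of K4A, T3A and R2K remained, and the differences of the strains that lost theirs shrank to -0.81 (R2A), -0.58 (K4Q), -0.47 (K4R), -0.40 (Q5A), -0.39 (T3D) and -0.34 (Q5E), while without day 34 the calls of K4A, K4R, R2A, R2K and T3A remained. The call of Q5E was also lost without day 44 (adjusted p = 0.059) and that of K4Q with the down barcode alone (0.11).

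Within these days the largest steps came early. From day 7 to day 14 all 9 strains at residues 2 to 5 declined in the quiescent fraction relative to the median strain, by -1.73 to -1.19 on the log2 scale with a median of -1.47. From day 14 to day 24 the median change was -0.95 and again all 9 were lower. It was -0.29 from day 24 to day 34, when 6 of 9 were lower, and -0.33 from day 34 to day 44, when 8 of 9 were lower. Expressed per 10 days, the median was -2.11 in the interval up to day 14 and -0.33 in the last one. The 6 strains at residues 1, 6, 7 and 8 had medians of -0.01, -0.17, 0.01 and -0.09 over the same intervals. These steps rest on 1 library at each end, in groups formed after the values were seen, and are given without a test.

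Set side by side within a day, the fractions held these strains in a different balance early and late. The median ratio of quiescent over non-quiescent share for the 9 strains at residues 2 to 5, on the log2 scale, was 0.03 at day 0, 0.49 at day 1, 1.18 at day 2, 1.37 at day 3, -0.64 at day 5, 0.30 at day 7, -1.09 at day 14, -2.08 at day 24, -2.53 at day 34 and -2.89 at day 44. With the fractions of day 5 exchanged its median would be 0.64, and the medians up to day 7 would then all be positive. All 9 were higher in quiescent cells at days 2 and 3, and all 9 were lower there from day 14 on. Since the group was formed after the quiescent day 44 values were seen, its late balance is a description. The fraction effect over all 20 libraries, with day as a block, averages over both periods, and edgeR called 0.0% of strains in it. No tip strain passed an unadjusted p of 0.05 there (87 of 347 strains did), and none was among the strains called by DESeq2 (25 lower and 31 higher). Without the day 5 libraries edgeR called 17 strains lower and 30 higher, again with no tip strain.

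The fraction effect was therefore also fitted within days 1 to 3 and within days 24 to 44, a split chosen after the data were seen. Over days 24 to 44 the quiescent share was lower than the non-quiescent share for 12 of the 15 strains, against 38.9% of all strains. R2K (-2.87 ± 0.11), Q5E (-2.87 ± 0.24) and Q5A (-2.79 ± 0.16) had the largest differences on the log2 scale, and the other 6 strains at residues 2 to 5 lay between -2.65 and -1.49 (edgeR adjusted p of at most 0.00060 for all 9). R8A (-0.94), R8K (-0.77) and A1S (-0.59) were lower as well, with adjusted p of at most 0.0012. A7S was higher in quiescent cells by 0.38 ± 0.11 (adjusted p = 0.0046), a direction that 38.6% of all strains took, and this call was lost without day 34 (adjusted p = 0.12), with DESeq2 (0.075), relative to the wild type (0.091), with library totals (0.69) and with the down barcode alone (0.067). With the down barcode alone the late calls of R8K (-0.58, adjusted p = 0.11) and K4Q (-1.82, 0.091) were lost too.

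Over days 1 to 3 the differences ran the other way but were less certain. The 9 strains at residues 2 to 5 had estimates of 0.21 (Q5E) to 1.66 (R2A), all positive, and T3D was called, at 1.20 ± 0.19 (edgeR adjusted p = 0.038). Of all strains 2.31% were higher and 3.46% lower. T3A (1.06 ± 0.23, adjusted p = 0.054) and R2A (1.66 ± 0.39, 0.057) were near the threshold. A1S, whose late difference was small, had an early one of 0.95 ± 0.24 (adjusted p = 0.065). T6D, at -0.52 ± 0.17, lay on the other side, with adjusted p = 0.10. The call of T3D was lost when day 2 or day 3 was left out. Without day 1, a fit on days 2 and 3 alone, 8 tip strains were called higher. In that fit A7S (-0.43, edgeR adjusted p = 0.016) and T6D (-0.31, 0.0032) were called lower. No share over all strains is set beside these counts, so they are not a result about the tip.

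In the first days, which include growth after the culture was diluted, tip strains changed in both directions in abundance averaged over both fractions. The shares of tip strains called were not far from those of all strains. The fractions did not move alike. From day 1 to day 3 the 9 strains at residues 2 to 5 had a median log2 change of 0.17 in the quiescent fraction. It was -0.87 in the non-quiescent fraction, both relative to the median strain. The early change was the mean of days 1, 2 and 3 over day 0, fitted over both fractions with edgeR. The fractions of a day were not paired in this fit, although both fractions of day 0 came from 1 sample of the culture. Lower strains were K4Q (-1.71 ± 0.48, adjusted p = 0.016), K4R (-1.15 ± 0.25, 0.0053), K4A (-1.01 ± 0.38, 0.048) and Q5E (-0.77 ± 0.15, 0.0040), 4 of the 15 against 28.8% of all strains. All 3 substitutions of lysine 4 were among them, but the call of K4A was lost with library totals (adjusted p = 0.056), with no filter (0.051) and with the down barcode alone (0.092), and that of K4Q with the down barcode alone (-0.85, 0.40). Higher strains were R2K (1.05 ± 0.26, adjusted p = 0.0097), T6D (0.91 ± 0.22, 0.0088), T6A (0.74 ± 0.13, 0.0030), R8K (0.69 ± 0.24, 0.036) and R8A (0.55 ± 0.18, 0.029), 5 of the 15 against 25.4% of all. The call of R8K was lost with the down barcode alone (0.22, adjusted p = 0.47). Among strains averaging 50 or more counts the calls of R8K (adjusted p = 0.058) and R8A (0.053) were lost. R2A (-0.66, adjusted p = 0.12), T3D (-0.45), Q5A (-0.15), T3A (-0.09), A1S (0.31) and A7S (0.39, 0.076) did not pass. R2K and K4R, which differed in sign here, both fell later in the quiescent fraction. The calls of K4A, K4Q, R8A and R8K were lost without day 2 (adjusted p of 0.051 to 0.14), those of K4A and R8K also without day 3 and that of R8A without day 1. Relative to the barcoded wild type the median strain moved by -0.29, and then R2A and Q5A were lower too while R2K, R8A and R8K lost their calls, which left 6 lower and 2 higher. The calls over all strains shifted the same way, as given in the closing section.

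For residues with more than 1 substitution, pairs were compared by the difference of their slopes over days 7 to 44 in both fractions, with an exact two-sided permutation of the days within each fraction. There were 121 such pairs in the library and 8 among the tip strains. Of the 121 pairs 2.48% passed after adjustment, and none of the 8 did. The closest was K4A minus K4R, at -0.19 log2 per 10 days (exact permutation p = 0.051, adjusted p = 0.19). In the quiescent libraries alone K4A minus K4R was -0.33, with a 95% interval of -0.76 to 0.11 from the scatter of the 5 days around the line. R2A minus R2K was -0.22 there (-0.42 to -0.02), with an exact permutation p of 0.067 and an adjusted p of 0.24. With only 120 permutations of the days, none of the 121 pairs passed in the quiescent libraries alone. The adjusted p there cannot decide a difference. Q5A minus Q5E was -0.01 (-0.19 to 0.16), while their day 44 ratios were -3.81 and -5.05. T3A minus T3D was -0.08 (-0.51 to 0.34), T6A minus T6D was -0.04 (-0.39 to 0.30) and R8A minus R8K was -0.09 (-0.45 to 0.26). A difference that did not pass is not shown to be absent, and the intervals give the sizes left possible by 5 days.

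R8A and R8K, the strains just inside the boundary of the set, had day 44 ratios of -0.90 and -0.30, and H3K9A, H3K9Q and H3K9R, just outside, had 0.75, 0.55 and 1.23. Farther along the tail, 19 substitutions at residues 9 to 18 had a median day 44 ratio of 0.51, and 1 of them was more than 4-fold below the median strain. In the stationary quiescent slope 1 of these 19 fell and 7 rose. Among 9 substitutions of lysines 14, 36 and 79, which like lysine 4 are modified in yeast, the median ratio was 0.05, with 1 falling and 3 rising slopes. The 282 kept single substitutions outside the tip had a median ratio of 0.04, 38 of them were more than 4-fold below the median strain, and 60 had falling and 51 rising slopes.

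Of 21 deletions that remove part of the tip 8 had enough counts to be kept, and their day 44 ratios lay between -8.65 and -2.40. The lowest, of the deletion of residues 4 to 15, rests on 1 count at day 44 (-13.95 to -6.16). The deletions of residues 5 to 20 and 1 to 12 had 1 and 3 counts at that day. All 8 were lower in the early change, with estimates of -8.00 to -0.85, against 28.8% of all strains. Of these 8, 4 had falling quiescent slopes later, against 22.8% of all strains. The deletion of residues 1 to 4 had 1117, 550, 564, 526, 202, 529, 265, 77, 87 and 38 quiescent counts in order of day, a day 44 ratio of -4.61 (-5.12 to -4.15) and a quiescent slope of -1.01 ± 0.11 (edgeR adjusted p = 0.0020), close to K4A and K4Q. The deletion of residues 5 to 8 had a ratio of -2.71 and a slope of -0.64 ± 0.13 (adjusted p = 0.0078). The strain with arginine at lysines 4, 9, 14 and 18 together had 801 quiescent counts at day 0, 22 at day 1 and 2 at day 44, so that most of its loss came before day 1. Its counterpart with glutamine at the same 4 lysines had a ratio of -0.33.

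Profiles over the 20 libraries were compared by the Pearson correlation of each strain's log2 share of the library counts, without a ratio to day 0. These profiles placed several tip strains nearest to each other among all kept strains. R2A was nearest to K4A (r = 0.97), K4A and K4R were nearest to each other (0.97), as were T3A and T3D (0.97) and Q5A and Q5E (0.98). Substitutions outside the tip came second for R2A (0.96), T3A (0.94), T3D (0.95), Q5A (0.97) and Q5E (0.96), nearly as close. For K4A the second was R2A (0.97), and for K4R the deletion of residues 1 to 4 (0.96). K4Q was nearest to the deletion of residues 1 to 4 (0.97). R2K was nearest to a strain of histone H4, H4I66A (0.97), and A1S to H3L70A (0.95). Of the 6 strains at residues 1, 6, 7 and 8 none had another tip strain as its nearest, and their correlation with the wild type was 0.61 to 0.69 for T6A, T6D and A7S, 0.36 for R8A, 0.38 for R8K and 0.20 for A1S. For the 9 strains at residues 2 to 5 it was -0.30 to 0.23, a range that includes A1S. The points share libraries and their depth, so these correlations are a description.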

How the data were processed

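The authors deposited, for each library, raw read counts of the up and the down barcode of 488 strain pairs, counted from single-end reads with their programs get_seqs_from_fastq and match_barcodes_to_strain; versions and an aligner are not given in the sources used here. A deposited table of the authors' own log2 ratios was not used. Barcodes were joined to strains by the deposited table (a blank down identifier was read as 0), pairs without a strain name (10.6% to 20.7% of a library) were left out, and both barcodes of a strain were added together. Tests used strains that averaged 10 or more counts.

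Groups were the labelled fraction and day. Models were fitted on all 347 strains with the quasi-likelihood F-test of edgeR 4.0.16 (R 4.3.3, TMM normalization, Benjamini-Hochberg adjusted p under 0.05); residual degrees of freedom were 3 for each slope, 6 for their difference (3 with day as a block), 9 for the fraction effect, 5 for the early change and 2 for the fraction effect within days 1 to 3 or 24 to 44. DESeq2 1.42.0 was an alternative, as were other scalings, filters, single barcodes and leaving out days. Pairs used log2 counts plus 0.5. Ratio intervals (95%, Clopper-Pearson) cover only the counting of reads. They may be too narrow even for that, since PCR reads are not independent molecules. Scripts were tested on simulated data. Other steps ran in Python 3.11.15 (scipy 1.17.1, numpy 2.4.6, pandas 2.3.3).

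The strains, comparison groups and tests were chosen with earlier results of these data known. The text names all 15 tip strains, the wild type, the multiple lysine 4 strains, deletions within the tip and the nearest strain by profile; H3K9 strains are named as neighbours of the boundary.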

Additional observations from a re-analysis of the deposited data

Results flagged for a closer look

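The trend over days 7 to 44 differed between the fractions for 9 of the tip strains, by the interaction of fraction and day in edgeR. The quiescent minus non-quiescent slope, in log2 per 10 days, was -1.16 ± 0.19 for R2A, -1.05 ± 0.16 for K4A, -0.96 ± 0.20 for K4Q, -0.85 ± 0.14 for T3A and -0.77 ± 0.14 for K4R. It was -0.70 ± 0.18 for T3D, -0.69 ± 0.13 for R2K, -0.67 ± 0.15 for Q5A and -0.67 ± 0.19 for Q5E. The largest adjusted p among them was 0.023 (Q5E). Without day 7 the calls of 6 of these strains were lost, and their differences were -0.81 to -0.34.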

How the results depend on the processing

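Limits are 1 culture, 1 library per fraction and day, and few late counts for R2A, K4A and K4Q (6, 9 and 6 at day 44). The number of tip strains falling in the quiescent fraction was 9 to 11 under every other scaling, barcode, filter and test, and 6 to 10 when a day was left out. That of called slope differences was 8 to 11 (9 with day as a block, added after the data were seen), and 3 to 9 with a day left out. The early count of 4 lower strains was 2 with the down barcode alone, 3 to 6 with the other scalings and filters, and 2 to 4 with a day left out. Over days 1 to 3 the count of 1 higher strain was 6 with DESeq2, 4 with library totals, 2 with the up barcode, 0 with the down barcode, 2 among strains averaging 50 or more counts, and 0 to 8 with a day left out. Over days 24 to 44 the 12 lower strains were 11 to 13 in all settings. The fraction effect over all days had 0 called tip strains with and without the day block.

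Scaling to library totals moved the median strain by -0.11 log2 per 10 days in the quiescent slope (109 strains falling and 33 rising, against 79 and 62; 98 and 33 relative to the wild type), by -0.12 in the slope difference (104 lower and 19 higher, against 68 and 49) and by -0.33 in the fraction effect of days 24 to 44 (174 lower and 79 higher, against 135 and 134). Over days 1 to 3 it moved by 0.14 (11 lower and 28 higher, against 12 and 8), and relative to the wild type by 0.25 (1 and 17). Relative to the wild type the early change gave 125 lower and 40 higher strains, against 100 and 88.

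Signs turned for these values. The slope of T6D, 0.01, was -0.0033 with DESeq2 or its size factors, -0.099 with library totals, -0.085 relative to the wild type, -0.023 with the up and -0.0072 with the down barcode, -0.0024 among strains averaging 50 or more counts, -0.0046 per unit of log2 of day plus 1, and -0.040 to 0.10 with a day left out. That of A7S was -0.049 with library totals and -0.033 relative to the wild type, and that of T6A 0.042 with the up barcode. The day 44 ratio of A1S was 0.48, of R2K 0.74 and of R8A 0.67 in the non-quiescent fraction. That of K4Q was 0.35 with the down barcode (1 count at day 0 and 1 at day 44). That of R8K was 0.37 with the up barcode and 0.46 in the non-quiescent fraction (its interval included 0). For T6A the ratio was -0.12 from day 1 and -0.087 relative to the wild type, and for T6D -0.17 from day 7. The cause was not tested.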
